A study of Homo sapiens with 12 samples.

Results

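Wild-type KLF5 (KLF5 WT) was overexpressed in HCC95, a human cell line established from a squamous cell carcinoma of the lung, and poly(A) RNA was sequenced. The comparison takes 4 of the 12 libraries of the series: 2 with KLF5 WT (WT A and WT B) and 2 with an empty vector (empty vector A and B). The libraries were chosen by their labels alone. A pair of HCC95 libraries with the KLF5 E419Q mutant entered the fit to estimate the spread and is otherwise not described, and the remaining 6 libraries are from another cell line. All HCC95 groups carry a vector, so the control cells differ from the WT cells in the insert; the sources used here do not give the vector, its promoter, whether cells were pooled or cloned, or when they were harvested. Whether replicates A and B grew as separate cultures is not stated either, so p-values reflect the variation among these libraries, possibly of technical origin.

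KLF5 is a zinc-finger transcription factor of the Krüppel-like family, whose members bind GC-rich and CACCC-type DNA through a run of C-terminal zinc fingers shared with the SP factors. It is expressed in proliferating cells of the basal layer of stratified epithelia and in intestinal crypts. It is known for sustaining growth and lineage genes in squamous carcinomas, where it acts beside TP63 and SOX2 at shared enhancers.

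Library totals ran from 3455357 to 4643748 expected counts in the 4 libraries, where 3 counts equal 0.646 to 0.868 CPM of the unscaled total. CPM is the usual unit of read count relative to library size. The gene levels below are scaled by TMM, a normalisation for composition. The squamous identity was checked against 11 markers (among them KRT5, KRT14, TP63, SOX2 and DSG3), and 11 of 11 had at least 10 counts in each of the 4 libraries. Their summed level was 21015 and 19937 CPM with the empty vector and 23416 and 24519 CPM with WT. KRT5 alone gave 14639 and 14269 CPM with the empty vector and 16180 and 16744 CPM with WT, so the sums do not stand for each marker. Of 4 immune markers, 3 (PTPRC, CD3E and MS4A1) had 0 counts in the 4 libraries, and the 4 together reached at most 0.251 CPM. Fibroblast markers summed to 0.501 to 2.0 CPM, endothelial markers to 11.5 to 16.5 CPM, and markers of alveolar or adenocarcinoma cells to 2.05 to 6.77 CPM.

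KLF5 (ENSG00000102554.9) had 518 and 632 expected counts in the empty-vector libraries and 1477 and 1613 in the WT libraries. On the CPM scale this was 151 and 137 against 421 and 404, a mean of 144 ± 9.89 against 413 ± 11.9 (SD, n = 2). The groups did not overlap, and KLF5 rose 2.87-fold (log2 fold change 1.52 ± 0.07 standard error, adjusted p = 5.5e-13, edgeR quasi-likelihood test). The cells with the empty vector thus transcribed KLF5 as well. Reads of the resident gene and of the introduced sequence were counted together and cannot be told apart.

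The length-scaled level gave a wider gap. The deposited TPM of KLF5, a level that accounts for transcript length, was 90.2 and 86.2 with the empty vector and 427 and 413 with WT, a ratio of 4.76. The deposited mean length of KLF5 transcripts was 2578 and 2487 bases with the empty vector and 1574 and 1575 bases with WT. The log2 ratio of the lengths, -0.69, was the 9th lowest of 5986 genes with at least 100 counts in each of the 4 libraries, 71.6% of which lay within 0.1 of 0. Transcript lengths of 3566 and 2951 bases are annotated for the protein-coding KLF5 models in GENCODE 29, beside processed models of 130, 767 and 984 bases. On the TPM scale KLF5 was also the most abundant of the KLF and SP factors in each library; KLF10, next with the empty vector, stood at 36.8 and 36.1 TPM.

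**Figure D1:**
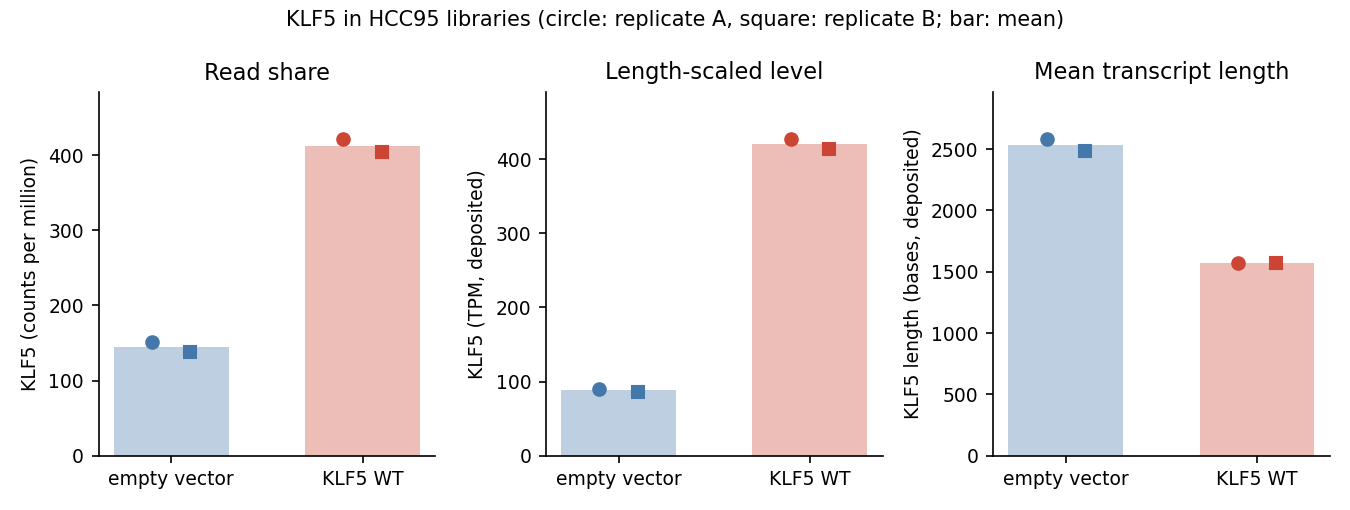
KLF5 in the 2 empty-vector (blue) and 2 KLF5 WT (red) libraries, in CPM, as deposited TPM and as deposited mean transcript length in bases; points are libraries and bars their means. Read share and TPM are higher with WT in both libraries (421 and 404 CPM against 151 and 137), and the mean length is shorter (1574 and 1575 bases against 2578 and 2487).

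Across the transcriptome, 12933 genes passed the filter on low counts and 2962 changed at an adjusted p under 0.05, which is 22.9% of the genes tested. Of these 1394 rose (10.8%) and 1568 fell (12.1%), and 274 rises and 171 falls were at least 2-fold. The median log2 fold change of all genes tested was 0.0034. These shares are the background against which each gene group is read. The groups were chosen with earlier results of these data known, so a share above the background may follow in part from that choice. Of the 738 distinct group members tested, 367 were called. The WT and empty-vector libraries did not overlap in 2960 of the 2962 called genes, so a lack of overlap adds little to a call. Leaving out WT A reduced the calls to 1719 (785 rises and 934 falls) and leaving out WT B to 1958 (933 and 1025), so the count rests on both WT libraries. With DESeq2 in place of edgeR 1150 genes were called (508 rises and 642 falls). DESeq2 gave no adjusted p for 3511 of the 12933 genes, and its counts here and in the gene groups take these as not called. Of the 393 called genes that are named or belong to the 38 gene groups, 253 kept their call without each of the 4 libraries in turn. Where a left-out library ended the call of a named gene, its adjusted p without that library is given.

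**Figure D2:**
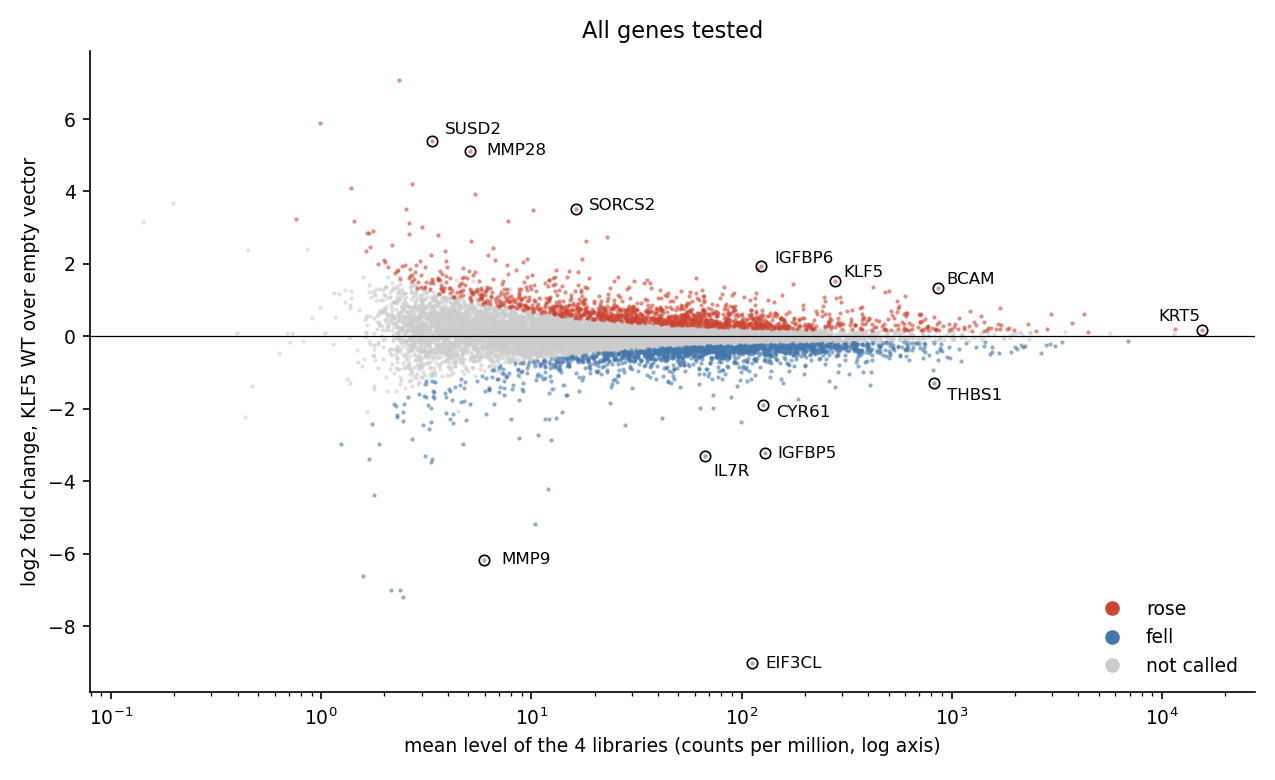
Mean level of the 4 libraries (CPM, log axis) against the log2 fold change of KLF5 WT over the empty vector for the 12933 genes tested; red genes rose, blue genes fell and grey genes were not called. KLF5 lies at 1.52, BCAM at 1.32 among genes of high level, and IL7R and IGFBP5 below -3.

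Among the largest rises were genes of secreted and cell-surface proteins that the empty-vector cells barely transcribed. SUSD2, a membrane protein with a sushi domain, had 0 and 1 counts with the empty vector and 22 and 28 with WT, a count ratio of 53.5 (95% counting interval 9.16 to 2153). MMP28, the matrix metalloproteinase epilysin, went from 1 and 1 counts to 37 and 37, a ratio of 39.6 (10.6 to 333). For SPON1, a secreted matrix protein, 2 and 3 counts stood against 43 and 32, a ratio of 16.0 (6.58 to 50.8). Both WT libraries exceeded both empty-vector libraries for each of these genes, as the choice of the largest rises requires. SORCS2, a sorting receptor, measured 1.75 and 3.26 CPM with the empty vector and 29.9 and 30.1 CPM with WT (log2 fold change 3.50 ± 0.25, adjusted p = 8.3e-10). WNT4, a secreted WNT ligand, rose from 5.55 and 4.57 to 32.2 and 30.3 CPM (2.64 ± 0.20, adjusted p = 3.3e-09). GHR, the growth hormone receptor, rose from 2.34 and 1.96 to 9.98 and 10.5 CPM (2.26 ± 0.40, adjusted p = 0.00023). The other large rises were MPPED1, MFAP5, ALPP, LOXL4, IGFL1, GNG2, CALB1 and 2 read-through models. CALB1 did not pass without empty vector B (adjusted p = 0.085). The read-through models, TMEM110-MUSTN1 and BCL2L2-PABPN1, share reads with their component genes and are uncertain; neither passed without one of the WT libraries (adjusted p = 0.19 without WT B and 0.12 without empty vector B for the first, and 0.050 without WT A for the second).

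The largest falls included genes of the cell surface, the matrix and the intermediate filament network. IL7R, the interleukin 7 receptor chain, was at 109 and 132 CPM with the empty vector and at 12.5 and 12.3 CPM with WT (log2 fold change -3.29 ± 0.14, adjusted p = 5.2e-13). IGFBP5, which binds insulin-like growth factors, fell from 201 and 264 to 21.1 and 28.6 CPM (-3.23 ± 0.14, adjusted p = 5.2e-13). The choice of the largest falls requires that the groups do not overlap. In both genes the highest WT library lay far under the lowest empty-vector library. MMP9, gelatinase B, had 31 and 67 counts with the empty vector and 1 and 0 with WT, a ratio of 91.7 (95% counting interval 16.1 to 3657). CDH6, a cadherin, fell from 44.7 and 48.9 to 11.1 and 6.26 CPM (-2.46 ± 0.18, adjusted p = 2.3e-09). EMILIN2, a matrix glycoprotein, fell from 17.0 and 13.5 to 2.28 and 2.0 CPM (-2.80 ± 0.34, adjusted p = 2.3e-06). SOCS2, an inhibitor of cytokine and growth hormone signalling, fell from 18.1 and 19.4 to 3.71 and 2.0 CPM (-2.73 ± 0.30, adjusted p = 5.8e-07). GHR and SOCS2 thus moved in opposite directions. ADAM12 fell too (4.39 and 6.74 to 1.43 and 0.501 CPM), but not without WT B (adjusted p = 0.0501) or without empty vector B (0.052). The nominal leader, EIF3CL, dropped from 631 and 1216 to 0 and 3 counts, and it is a near-identical copy of EIF3C with which RSEM shares reads. The summed level of EIF3C and EIF3CL was 759 and 739 CPM with the empty vector and 521 and 531 CPM with WT, so the size for EIF3CL alone is uncertain; this sum was chosen after its values were seen.

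**Figure D3:**
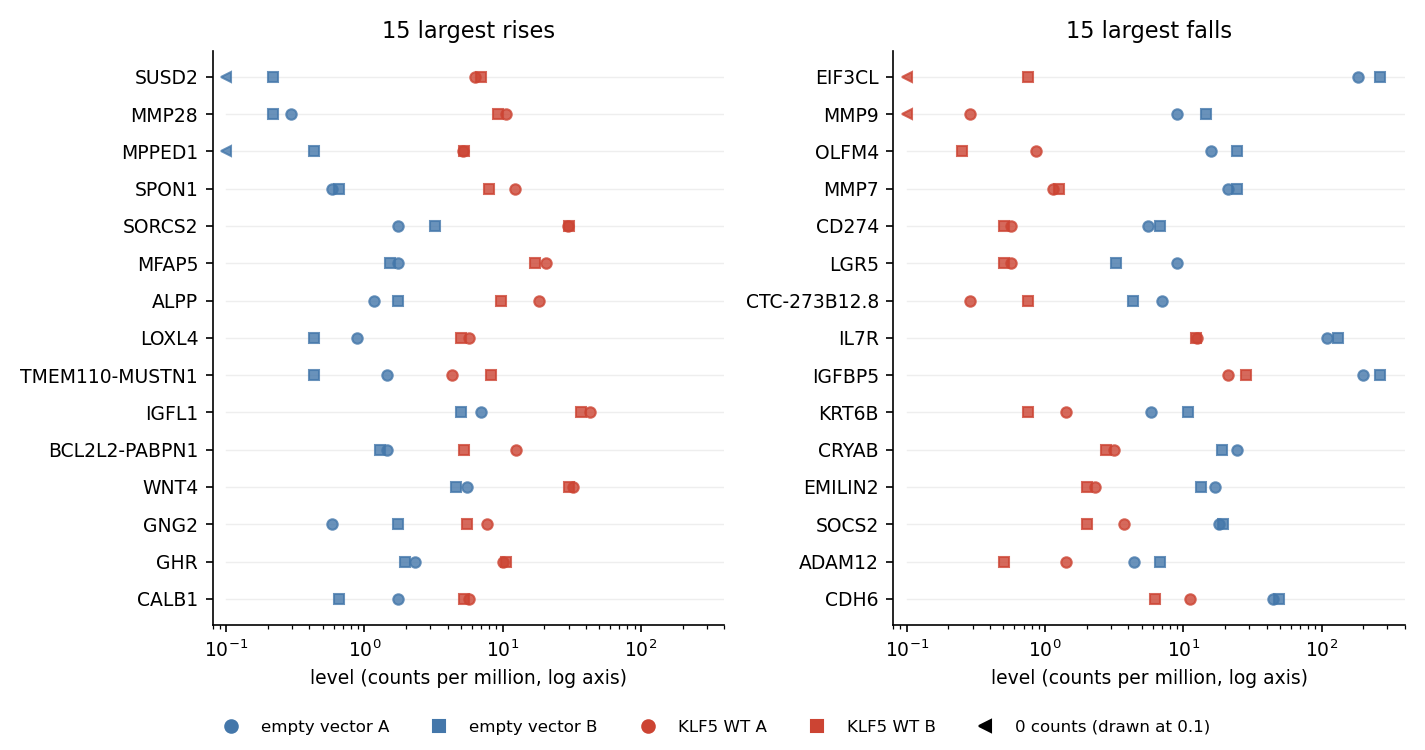
Level in each library (CPM, log axis) of the 15 largest rises and 15 largest falls; blue marks the empty vector, red KLF5 WT, circles replicate A, squares replicate B, and triangles 0 counts. No red point overlaps a blue point in any row, as the choice of genes requires; IL7R and IGFBP5 start from over 100 CPM, while most rises start from under 10 CPM.

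Of the other KLF and SP factors, 15 were tested; with KLF5 included, 5 of 16 rose and 2 fell. KLF13, a family member also expressed in lymphoid cells, went from 67.8 and 62.4 to 149 and 129.5 CPM (1.10 ± 0.09, adjusted p = 1.8e-08). Apart from KLF5, only KLF13 kept its call without each library in turn. KLF3, a repressor of the family, rose from 51.5 and 45.2 to 62.7 and 68.7 CPM, but not without WT B (adjusted p = 0.067) or empty vector B (0.072), nor with DESeq2 (0.097). KLF4, which promotes the terminal differentiation of epidermis, fell from 55.5 and 50.7 to 42.2 and 40.3 CPM (adjusted p = 0.035), and did not pass without WT A (0.10), WT B (0.18) or empty vector A (0.14), or with upper-quartile scaling (0.058) or DESeq2 (0.29). KLF16 also fell (40.1 and 43.9 to 28.8 and 30.6 CPM), with adjusted p = 0.071 without WT A and 0.075 without empty vector B, and 0.15 with DESeq2. The rises of KLF12 and KLF9, both under 10 CPM, were lost on leaving out each library in turn (adjusted p of 0.052 to 0.19 and of 0.085 to 0.18). SP1 stood at 113 and 109 against 113 and 110.3 CPM. The group had 3 rises and 0 falls without WT A, 3 and 1 without empty vector A, 2 and 1 without WT B or empty vector B, and 2 and 0 with DESeq2.

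Basal keratinocytes anchor to the basement membrane through hemidesmosomes, built from integrin α6β4, collagen XVII, plectin and dystonin, which bind laminin 332. Of 20 genes of this adhesion system and of the basal keratins, 12 rose and 2 fell, with a median log2 fold change of 0.36 (0.22 without empty vector B). BCAM, a laminin receptor, was at 494 and 489 CPM with the empty vector and at 1214 and 1243 CPM with WT (1.32 ± 0.06, adjusted p = 6.6e-13). KRT15, a keratin of basal and stem-like cells, went from 291 and 289 to 712 and 639.7 CPM (1.22 ± 0.06, adjusted p = 8.2e-12). Replicates lay close together in both genes, and the groups were far apart. COL17A1, the transmembrane collagen of hemidesmosomes, rose from 387 and 368 to 885 and 758 CPM (1.12 ± 0.07, adjusted p = 4.6e-11). The laminin 332 chain LAMB3 rose from 277 and 258 to 479.7 and 444 CPM (0.79 ± 0.06, adjusted p = 6.2e-09), and LAMA3 from 69.0 and 76.8 to 165 and 128 CPM (0.99 ± 0.11, adjusted p = 6.4e-07). The integrins also divided: ITGB4 rose (1004 and 1193 to 1483 and 1419.5 CPM), its partner ITGA6 was not called (591 and 691 against 663 and 650.2 CPM), and ITGA3 fell from 1034 and 1234 to 789.8 and 747 CPM (-0.56 ± 0.07, adjusted p = 1.6e-06). PLEC and DST, the cytoplasmic linkers, had log2 fold changes of -0.09 and 0.01. Desmosomal DSC3 (0.75 ± 0.08) and DSG3 (0.51 ± 0.07) rose, as did the keratins KRT14 (105 and 92.2 to 153 and 149.8 CPM) and KRT5 (14639 and 14269 to 16179.6 and 16744 CPM). KRT17 rose by 0.37 ± 0.07, a call that DESeq2 did not make (adjusted p = 0.11). Without WT B 11 rose and 1 fell, and with DESeq2 10 and 1.

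Promoters of 2 genes that rose, BCAM and COL17A1, and of 2 that fell, IL7R and JAG1, are shown because KLF and SP zinc fingers bind C-rich letters. The bases -200 to -1 before the RefSeq start are given 5′ to 3′ on the gene's strand (GRCh38.p14), with matches to CCNCNCCC or its reverse complement GGGNGNGG in capitals; these 4 genes were chosen after their values were seen. The windows are chr19:44808859-44809058 on the plus strand for BCAM, chr10:104085881-104086080 on the minus strand for COL17A1, chr5:35856691-35856890 on the plus strand for IL7R and chr20:10674000-10674199 on the minus strand for JAG1.
BCAM: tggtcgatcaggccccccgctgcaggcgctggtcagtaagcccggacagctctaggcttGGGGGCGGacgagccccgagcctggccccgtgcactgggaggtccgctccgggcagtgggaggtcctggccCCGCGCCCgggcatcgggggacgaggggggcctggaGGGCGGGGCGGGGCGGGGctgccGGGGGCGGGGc
COL17A1: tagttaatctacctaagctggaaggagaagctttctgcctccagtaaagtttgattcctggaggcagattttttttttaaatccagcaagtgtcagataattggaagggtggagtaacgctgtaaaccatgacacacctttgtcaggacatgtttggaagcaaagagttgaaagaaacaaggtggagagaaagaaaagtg
IL7R: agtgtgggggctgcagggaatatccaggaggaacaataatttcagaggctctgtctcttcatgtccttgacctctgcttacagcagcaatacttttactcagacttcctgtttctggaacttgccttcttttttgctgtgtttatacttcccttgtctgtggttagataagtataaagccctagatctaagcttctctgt
JAG1: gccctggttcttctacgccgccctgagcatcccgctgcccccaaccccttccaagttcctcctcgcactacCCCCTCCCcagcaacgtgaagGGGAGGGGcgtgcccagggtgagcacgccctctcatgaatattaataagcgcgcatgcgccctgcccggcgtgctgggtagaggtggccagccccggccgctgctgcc
BCAM has 7 matches, some of which overlap each other, and COL17A1 has 0, although both genes rose. JAG1 has 2 matches and IL7R 0, although both fell. Only CCNCNCCC is marked in the windows. GGGTG, the reverse complement of CACCC, also stands in the COL17A1 and JAG1 windows, while BCAM and IL7R hold CACCC on neither strand. Over the 9936 tested genes with a promoter in the table (250 bases before to 50 after the start), 74.4% held CCNCNCCC on either strand. The share was 75.7% of the 1037 promoters of genes that rose and 75.3% of the 1261 of genes that fell. CACCC on either strand stood in 63.0% of all, 64.7% of rising and 62.3% of falling promoters; the 2 motifs can overlap. Of 26 promoters of the cholesterol and fatty acid group, 88.5% held CCNCNCCC and 80.8% CACCC, and of 11 of the basal adhesion group 72.7% held each; these shares were not tested. A match describes the letters and does not show binding.

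Genes of squamous differentiation moved in both directions: of 13 tested, 5 rose and 4 fell. KRT13, a keratin of suprabasal mucosal cells, went from 3291 and 3438 to 4978 and 5315 CPM (0.61 ± 0.05, adjusted p = 1.4e-08), and KRT4, its pairing partner, from 40.6 and 28.1 to 83.2 and 74.7 CPM (1.23 ± 0.14, adjusted p = 1.2e-06). The plakins of the cornified envelope rose as well, PPL from 149 and 131 to 279.6 and 226 CPM and EVPL from 88.0 and 90.3 to 141 and 148 CPM. KRT80, a keratin of differentiating epithelia, fell from 235 and 211 to 90.6 and 90.7 CPM (-1.29 ± 0.08, adjusted p = 1.3e-10). The 3 other falls were small proline-rich envelope precursors near 5 CPM or less (SPRR1A, SPRR1B and SPRR2A), and each was lost on leaving out 2 or more of the libraries in turn (adjusted p of 0.054 to 0.26). So 2 falls remained without WT A or empty vector B and 1 without WT B or empty vector A, and 1 with DESeq2. TGM1, a cross-linking enzyme, rose from 2.34 and 3.04 to 6.27 and 6.77 CPM, a call lost on leaving out each library in turn (adjusted p of 0.067 to 0.14).

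Of 18 tested keratins, alarmins and serpins of activated or wounded epidermis, 7 fell and 4 rose, with a median of -0.59; DESeq2 called 4 falls and 3 rises. KRT6A went from 787 and 748 to 497 and 476 CPM (-0.66 ± 0.06, adjusted p = 6.8e-08). KRT16, its partner, went from 89.5 and 59.2 to 28.8 and 26.6 CPM (-1.40 ± 0.16, adjusted p = 1.1e-06). Both WT libraries were below both empty-vector libraries for each, which is so for nearly all called falls. KRT6B fell too (5.85 and 10.9 to 1.43 and 0.752 CPM); KRT6A, KRT6B and KRT6C are near-identical copies, so their split is uncertain. S100A2 (478 and 537 to 331 and 314 CPM), S100A9 (74.6 and 52.2 to 24.8 and 27.6 CPM) and the protease inhibitor SLPI fell, SLPI by -1.03 ± 0.19, which DESeq2 did not call (adjusted p = 0.13). Against these, S100A6, S100P and the serpins SERPINB5 and SERPINB13 rose, SERPINB13 from 41.2 and 36.3 to 66.4 and 73.4 CPM. S100P, a calcium-binding protein, had the highest log2 fold change of the group at a low level, from 1 and 2 to 11 and 11 counts, a ratio of 7.84 (95% counting interval 2.36 to 40.9), and was not called without WT A (adjusted p = 0.052). In the simple epithelium group KRT8 and KRT19 rose (2 of 4 tested), KRT8 from 1212 and 1255 to 1681 and 1538 CPM and KRT19 from 2524 and 2713 to 2968 and 3111 CPM.

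Of 22 squamous and epithelial transcription factors, 4 rose and 5 fell. TP63, the master regulator of the basal lineage, went from 389 and 354 to 710.0 and 752 CPM (0.98 ± 0.07, adjusted p = 5.8e-10). SOX2, amplified in many squamous carcinomas, was at 57.3 and 53.5 against 45.9 and 49.1 CPM and was not called (-0.21, adjusted p = 0.16). FOXE1 rose from 91.2 and 77.2 to 124 and 115 CPM (0.51 ± 0.09, adjusted p = 0.00024). RUNX1, a haematopoietic and epithelial factor, fell from 140.0 and 122 to 66.4 and 76.2 CPM (-0.86 ± 0.10, adjusted p = 7.1e-07), and EHF, an ETS factor of epithelia, from 426 and 426 to 289 and 296 CPM (-0.54 ± 0.07, adjusted p = 2.7e-06). ZNF750 and GRHL3 promote terminal differentiation of epidermis. ZNF750 fell from 6.14 and 6.74 to 1.14 and 1.75 CPM (adjusted p = 0.0023, and 0.054 without WT A). GRHL3 fell from 22.2 and 19.4 to 12.3 and 12.8 CPM (adjusted p = 0.011, and 0.055 to 0.073 without WT A, WT B or empty vector A, and 0.15 with DESeq2). Without WT A 2 rose and 2 fell, without empty vector A 3 and 3, without empty vector B 2 and 5, and with DESeq2 2 and 2. Among 11 AP-1 subunits, which pair to bind a palindromic site, FOSL1 fell from 103 and 109 to 56.7 and 40.6 CPM (-1.13 ± 0.14, adjusted p = 3e-06). FOSL2 and JUN fell by smaller amounts (-0.42 ± 0.07 and -0.51 ± 0.11). FOS, JUNB and JUND were not called. ATF3 rose (17.2 and 15.2 to 23.4 and 26.1 CPM), but not without WT B (0.11) or empty vector B (0.091), nor with DESeq2 (0.22). Of 12 endodermal and lung lineage genes, OLFM4, LGR5 and SOX4 fell; LGR5 was lost without empty vector A (0.0555). NKX2-1, the lung adenocarcinoma lineage factor, was called as a rise at 1.75 and 1.74 against 3.99 and 6.01 CPM, a call lost on leaving out each library in turn (adjusted p of 0.082 to 0.32).

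**Figure D4:**
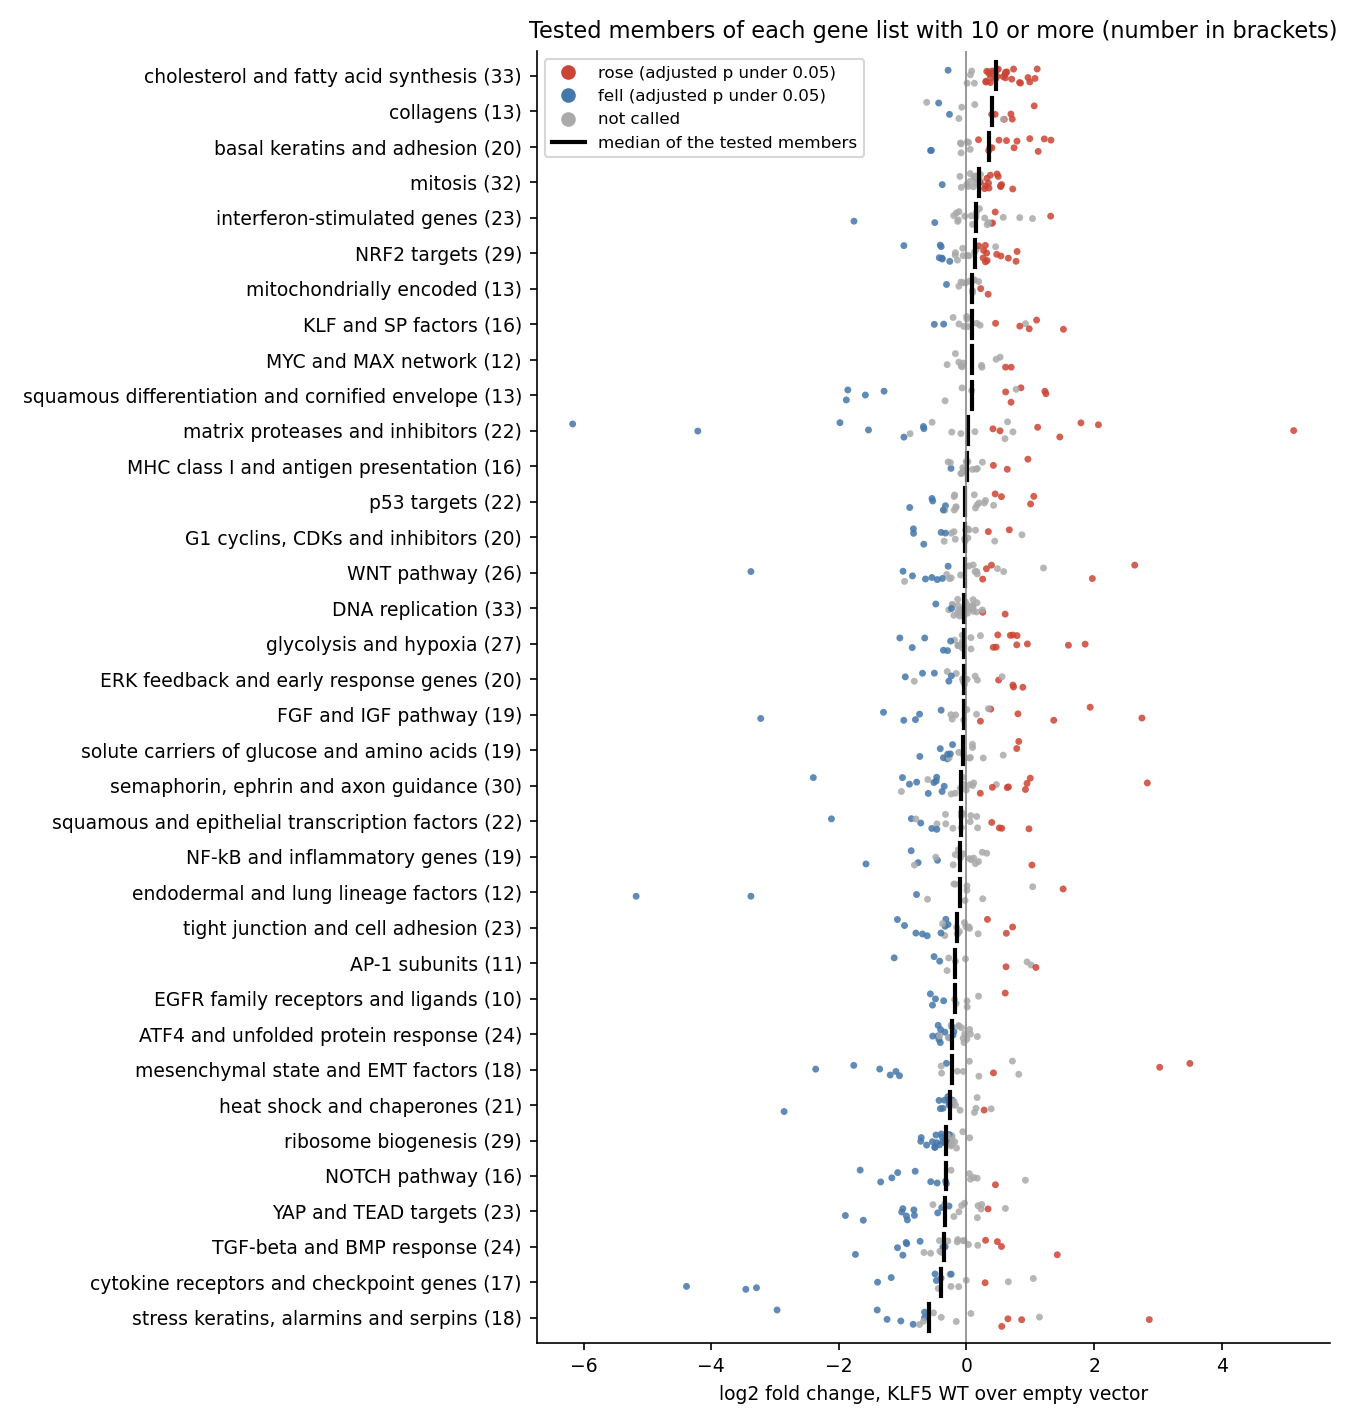
Log2 fold change of every tested member of each gene group with at least 10 tested members, ordered by the group's median (black bar); red rose, blue fell and grey was not called, and the number tested is in brackets. Cholesterol and fatty acid synthesis has the highest median (0.46) and stress keratins, alarmins and serpins the lowest (-0.59).

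Of 23 tight junction and adhesion genes, 9 fell and 3 rose. CLDN4 went from 401 and 362 to 195 and 193 CPM (-0.97 ± 0.07, adjusted p = 6.9e-10), CLDN7 from 169 and 185 to 111 and 119.5 CPM, OCLN from 47.9 and 40.2 to 23.7 and 26.6 CPM and CGN, the junction adaptor cingulin, from 14.3 and 14.6 to 7.98 and 5.76 CPM. CDH1, E-cadherin, fell from 242 and 240.1 to 199 and 187 CPM (-0.32 ± 0.07, adjusted p = 0.0011). CLDN1, a claudin of epidermis, rose from 277 and 229 to 408 and 423 CPM (0.72 ± 0.08, adjusted p = 4.8e-07). PKP1, a desmosomal plaque protein, rose from 574 and 550.3 to 853 and 878 CPM (0.62 ± 0.06, adjusted p = 1.9e-07), and PERP, a desmosomal membrane protein, rose by 0.33 ± 0.06. PKP3, another desmosomal plaque protein, fell from 116 and 142 to 85.5 and 111 CPM (-0.40 ± 0.11, adjusted p = 0.0091), a call lost without WT A (0.21) or empty vector B (0.19) and with DESeq2 (0.069). Tight junction and desmosomal genes thus included both rises and falls.

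Of 18 tested genes of the mesenchymal state, 7 fell, 3 rose and 8 were not called (3 fell and 0 rose with DESeq2, which gave no adjusted p for 3511 genes). The median was -0.23; it was -0.09 without WT B and -0.07 without empty vector B, where 5 fell and 4 rose. CDH2, N-cadherin, went from 134 and 139 to 50.5 and 55.6 CPM (-1.36 ± 0.10, adjusted p = 7.8e-10). TNC, tenascin C, went from 152 and 124 to 51.3 and 67.2 CPM (-1.20 ± 0.12, adjusted p = 1.3e-07). In both genes the WT libraries lay under the empty-vector libraries without overlap, as holds for nearly all called falls. CDH1 and CDH2 therefore both fell, CDH2 by the larger amount. TAGLN, an actin-binding protein, went from 16.7 and 10.4 to 4.28 and 3.51 CPM, and FN1 from 10.2 and 9.79 to 5.13 and 4.51 CPM, lost without WT B (adjusted p = 0.097). The transcription factor SNAI2 was at 69.0 and 68.9 against 67.3 and 74.7 CPM. The microfibril gene MFAP5 and the cross-linking enzyme LOXL4 rose from under 2 CPM to 20.5 and 17.0 CPM and to 5.70 and 5.01 CPM. SERPINE2, a serine protease inhibitor, rose from 51.5 and 76.1 to 88.1 and 86.2 CPM (0.42 ± 0.12, adjusted p = 0.015), a call lost without WT A (0.093), WT B (0.067) or empty vector A (0.23) and with DESeq2 (0.088).

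Of 13 collagens tested, 6 rose and 2 fell. COL7A1, the anchoring fibril collagen beneath hemidesmosomes, went from 403 and 381 to 652 and 616 CPM (0.70 ± 0.06, adjusted p = 1.1e-08), COL16A1 from 27.8 and 25.4 to 65.0 and 46.4 CPM and COL6A1 from 45.0 and 40.9 to 68.1 and 72.2 CPM. COL4A1, a basement membrane collagen, fell from 178 and 182 to 137 and 129 CPM (-0.44 ± 0.07, adjusted p = 0.00016), while its partner COL4A2 was at 224 and 232 against 220.0 and 201 CPM and was not called. A single fall remained without WT A, WT B or empty vector B, with the 4 libraries alone, with upper-quartile scaling and with DESeq2. Matrix proteases and their inhibitors split evenly, 7 and 7 of 22 (2 and 2 with DESeq2). Among plasminogen activators, PLAT fell from 511 and 496 to 250.3 and 259 CPM (-0.98 ± 0.07, adjusted p = 1.6e-09), PLAU from 377 and 387 to 264 and 219 CPM and the receptor PLAUR from 37.7 and 34.8 to 26.8 and 18.8 CPM, lost without WT B (0.11) and with DESeq2 (0.065). MMP7, matrilysin, went from 21.1 and 24.4 to 1.14 and 1.25 CPM (-4.21 ± 0.34, adjusted p = 6.2e-09). MMP10, stromelysin 2, rose from 6.72 and 5.66 to 16.8 and 17.0 CPM (1.46 ± 0.24, adjusted p = 0.00013). The inhibitor TIMP2 rose from 37.7 and 44.6 to 88.6 and 91.2 CPM (1.12 ± 0.11, adjusted p = 1.1e-07), and the kallikrein KLK11 from 6.43 and 6.96 to 28.5 and 18.8 CPM.

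Cytokine receptors and checkpoint genes had a median of -0.40 (-0.26 without empty vector B), with 9 falls and 1 rise among 17 tested (4 and 1 with DESeq2). TNFRSF21, death receptor 6, went from 404 and 397 to 149 and 156 CPM (-1.39 ± 0.07, adjusted p = 9.5e-13). CD274, the checkpoint ligand PD-L1, had 19 and 31 counts with the empty vector and 2 and 2 with WT. IL1R1, the signalling interleukin 1 receptor, had 10 and 18 counts against 1 and 0, a ratio of 26.2 (95% counting interval 4.33 to 1071). Its co-receptor IL1RAP was the rise, from 236 and 229 to 281 and 287 CPM (0.29 ± 0.06, adjusted p = 0.0019). LGALS9, a galectin, went from 16.4 and 15.2 to 5.99 and 7.77 CPM, and IL6ST, the shared gp130 chain, from 127 and 131 to 97.2 and 99.0 CPM. CD47 fell from 92.1 and 119 to 77.5 and 76.2 CPM, lost without empty vector B (0.12). CD276 was at 123 and 138 against 129 and 132 CPM. Of 19 NF-kB and inflammatory genes tested, IL8 (15.5 and 20.7 to 5.99 and 6.26 CPM), PTGS2 (41.5 and 34.8 to 23.9 and 17.8 CPM), TNFAIP3 (45.0 and 37.2 to 27.4 and 21.0 CPM) and NFKB1 fell, NFKB1 not without WT B (0.11) nor with DESeq2 (0.10). IL18, an inflammasome-processed cytokine, rose from 24.0 and 21.8 to 47.9 and 44.9 CPM (1.03 ± 0.14, adjusted p = 9.1e-06). RELA, REL and NFKBIA were not called. This group thus had 1 rise and 4 falls, a total near the background share of 22.9%, with a median of -0.10.

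Interferon-stimulated genes gave 3 rises and 2 falls of 23, counts near the background. The membrane restriction factor IFITM3 fell from 183 and 160.1 to 114 and 127 CPM (-0.50 ± 0.10, adjusted p = 0.00072) and kept its call without each library; the other 4 calls of the group did not. Without WT A 1 rose and 1 fell, without WT B 0 and 3, without empty vector A 3 and 1, without empty vector B 1 and 2, and with DESeq2 0 and 1. Of 16 antigen presentation genes, 3 rose: ERAP2 from 31.6 and 30.2 to 56.4 and 63.4 CPM (0.96 ± 0.12, adjusted p = 4.6e-06), ERAP1 from 129.5 and 141 to 181 and 182 CPM (0.42 ± 0.08, adjusted p = 0.00032), both aminopeptidases that trim peptides, and PSMB9, which DESeq2 did not call (0.054). TAP2 was called lower by a log2 fold change of -0.24, which was lost on leaving out each library in turn (adjusted p of 0.057 to 0.185), with DESeq2 (0.18) and with upper-quartile scaling (0.072). HLA-B, HLA-C and HLA-E had log2 fold changes between -0.09 and 0.10 and were not called; these polymorphic genes share reads. In all 3 rose and 1 fell of 16, a total near the background share of 22.9%. With upper-quartile scaling 6 rose and 0 fell.

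Growth factor signalling genes changed within each family in both directions. Among EGFR family genes, EGFR itself rose from 471 and 631 to 856 and 829 CPM (0.61 ± 0.08, adjusted p = 1.1e-05). The ERBB3 ligand NRG1 fell from 1259 and 1160.2 to 963 and 924 CPM (-0.36 ± 0.06, adjusted p = 0.00014), and LRIG1, an inhibitor of EGFR, from 70.5 and 60.2 to 43.9 and 45.6 CPM (-0.53 ± 0.11, adjusted p = 0.0011). The ligand TGFA also fell (50.6 and 58.3 to 41.3 and 33.1 CPM), lost without WT B (0.13) or empty vector B (0.075) and with DESeq2 (0.11). In all 1 rose and 4 fell of 10, or 2 fell without WT B or with DESeq2. The FGF and IGF genes gave 6 rises and 6 falls of 19. IGFBP6, which prefers IGF2, went from 52.6 and 50.2 to 189 and 204 CPM (1.94 ± 0.09, adjusted p = 5.5e-13), opposite to IGFBP5. IGFBP2 rose from 291 and 256 to 469 and 484 CPM (0.81 ± 0.07, adjusted p = 5.6e-08). FGFBP1, which releases FGFs from the matrix, rose from 228 and 240.1 to 658 and 552 CPM (1.37 ± 0.07, adjusted p = 8.2e-12). FGF2 fell from 64.9 and 65.9 to 25.9 and 27.1 CPM (-1.30 ± 0.12, adjusted p = 3.4e-08). Receptors differed, FGFR3 rising by 0.38 ± 0.07 and FGFR1 falling by -0.40 ± 0.09. The adaptor IRS1 fell from 185 and 161 to 106 and 101 CPM (-0.74 ± 0.08, adjusted p = 1e-06). Of 20 ERK feedback and early response genes, the phosphatase DUSP6 (52.9 and 49.2 to 98.9 and 89.0 CPM) and the ETS factor ETV4 (36.3 and 37.2 to 66.1 and 56.1 CPM) rose. DUSP7 fell from 95.3 and 109 to 73.3 and 71.9 CPM, and DUSP4 from 57.6 and 60.7 to 35.1 and 26.3 CPM, which DESeq2 did not call (0.24). The group had 4 rises and 5 falls, which became 2 and 2 without WT A, 4 and 2 without empty vector A, 2 and 5 without empty vector B 4 and 3 with the 4 libraries alone and 2 and 2 with DESeq2.

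In the NOTCH pathway membrane ligands on one cell activate receptors on its neighbour, and the cleaved receptor acts in the nucleus. Of 16 members tested, 9 fell and 1 rose, with a median of -0.32. The ligand JAG1 was at 592 and 575 CPM with the empty vector and at 229 and 229.5 CPM with WT (-1.35 ± 0.06, adjusted p = 5.5e-13). The receptor NOTCH3 went from 131 and 139 to 39.3 and 45.4 CPM (-1.67 ± 0.10, adjusted p = 5.1e-11), and NOTCH1 from 212 and 218 to 112 and 134 CPM (-0.80 ± 0.08, adjusted p = 3.2e-07). NRARP, a target and feedback inhibitor, went from 27.8 and 41.1 to 14.0 and 17.0 CPM (-1.17 ± 0.18, adjusted p = 6.3e-05). In each of the 4 genes the groups were apart, as in nearly all called genes. The target HES1 was at 33.6 and 31.3 against 35.9 and 31.8 CPM and the mediator RBPJ at 45.3 and 43.9 against 49.3 and 42.8 CPM, neither called. The weaker falls (HES4, NOTCH2, MAML2, HEY1 and DLL1) were each lost without at least 1 library, as was the rise of LFNG (adjusted p of 0.054 to 0.285). So 4 falls remained without WT B or with DESeq2 and 6 without WT A or empty vector B.

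Of 24 TGF-beta and BMP genes, 8 fell and 4 rose, with a median of -0.35 (-0.22 without WT A; 5 falls and 3 rises with DESeq2). PMEPA1, a feedback inhibitor induced by TGF-beta, went from 252 and 321 to 78.7 and 93.0 CPM (-1.74 ± 0.10, adjusted p = 3.3e-11). The type II receptor TGFBR2 fell from 156 and 157 to 67.6 and 79.9 CPM (-1.08 ± 0.09, adjusted p = 1.3e-08). The ligand TGFB2 fell from 71.6 and 53.3 to 31.4 and 30.3 CPM (-1.0 ± 0.14, adjusted p = 1.3e-05). ID1 and ID3, targets of BMP signalling, fell from 215 and 227 to 96.9 and 131 CPM and from 117 and 120.1 to 58.4 and 83.7 CPM. The receptor genes went different ways, since TGFBR1 (71.0 and 54.6 to 88.4 and 92.7 CPM) and the co-receptor TGFBR3 (7.31 and 4.13 to 16.2 and 13.5 CPM) rose. BMP7 rose from 152 and 143 to 207 and 205 CPM (0.48 ± 0.08, adjusted p = 7e-05). The transducers SMAD2, SMAD3 and SMAD4 had log2 fold changes of 0.03, -0.04 and 0.18 and were not called.

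The targets of YAP and TEAD, the transcriptional end of the Hippo pathway, gave 11 falls and 1 rise of 23, with a median of -0.34. CYR61, a matricellular protein, went from 191 and 207 to 54.4 and 52.6 CPM (-1.90 ± 0.10, adjusted p = 5.9e-12). ANKRD1 went from 97.9 and 121 to 40.8 and 31.6 CPM (-1.62 ± 0.13, adjusted p = 3.6e-09). FJX1, a secreted regulator of planar polarity, went from 1049.6 and 1084 to 555 and 567 CPM (-0.93 ± 0.06, adjusted p = 1.3e-10), and F3, tissue factor, from 456 and 455 to 263 and 251 CPM (-0.82 ± 0.08, adjusted p = 7.8e-08). CTGF, often listed beside CYR61, fell at a low level (7.89 and 11.3 to 6.27 and 3.51 CPM), lost without WT B (0.30) or empty vector B (0.29). The coactivators themselves were not called, YAP1 at 135 and 131 against 144 and 155 CPM and WWTR1 at 119.6 and 128 against 113 and 115 CPM. WWC1, an upstream Hippo component, fell from 109 and 104 to 60.1 and 51.1 CPM (-0.94 ± 0.10, adjusted p = 2.9e-07). TGFB2 is counted in both lists. THBS1, a secreted target of TGF-beta and YAP, had one of the largest falls in absolute level, from 1162 and 1175 to 512 and 444 CPM (-1.29 ± 0.08, adjusted p = 1.3e-10). AMOTL1 was the rise, not called without WT B (0.0502) or with DESeq2 (0.061), and 2 rises were called without empty vector A and 3 with upper-quartile scaling.

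**Figure D5:**
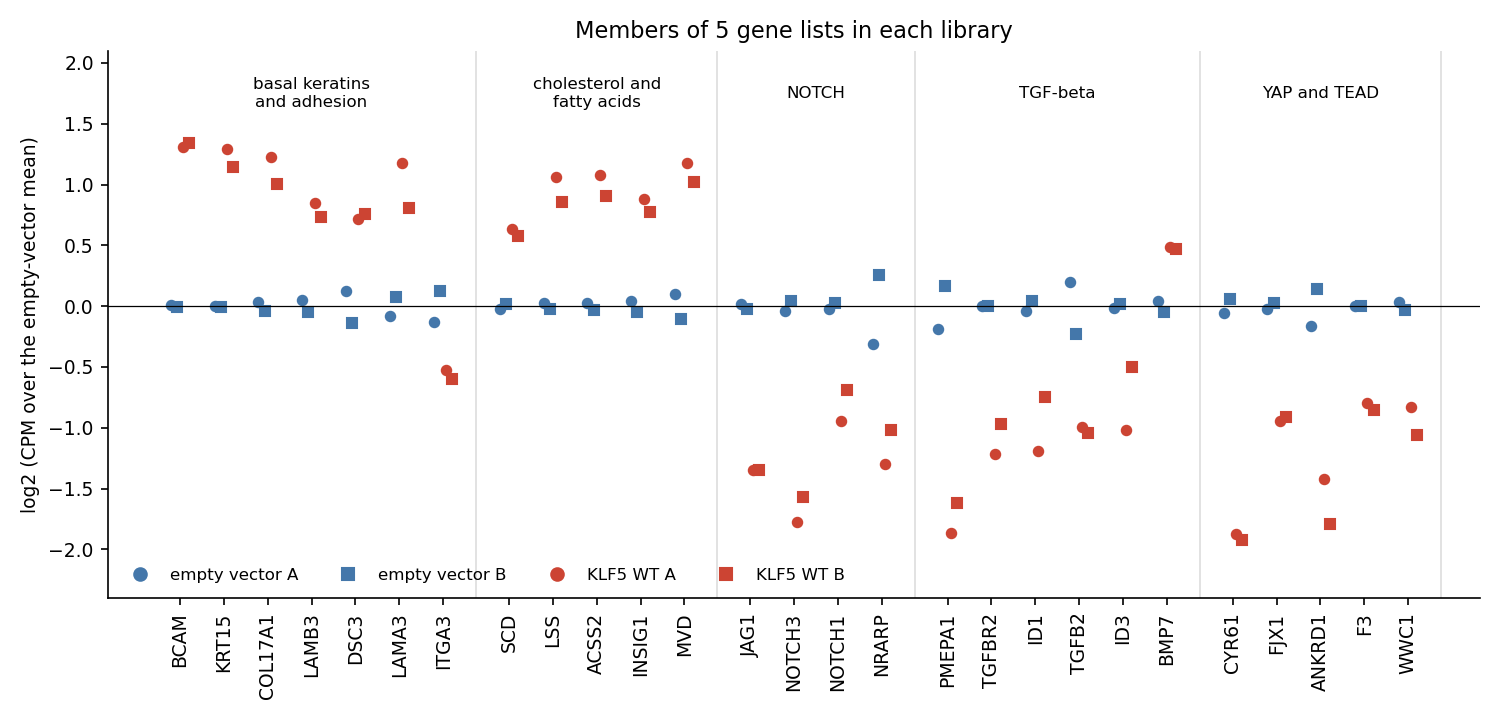
Level of members of 5 gene groups in each library, as log2 of CPM over the empty-vector mean; blue is the empty vector, red KLF5 WT, circles replicate A and squares replicate B. Most red points of the basal adhesion and cholesterol genes lie above 0. Most of the NOTCH, TGF-beta and YAP and TEAD genes lie below it, with ITGA3 and BMP7 on the other side of their group. Every gene drawn was called, and members not called are left out. The separation of the colours follows from that choice, and the figure does not show each group as a whole.

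WNT pathway genes moved individually (5 rises and 8 falls of 26, or 3 and 6 without WT A or WT B and 1 and 4 with DESeq2), with a median of -0.03 that was 0.01 with upper-quartile scaling, 0.03 without empty vector A and -0.12 without empty vector B. Besides WNT4, the receptor FZD10 rose from 2.05 and 3.92 to 12.3 and 12.3 CPM (1.97 ± 0.37, adjusted p = 0.00048). The receptor FZD1 fell from 159.6 and 156 to 80.9 and 93.5 CPM (-0.85 ± 0.09, adjusted p = 3.7e-07), and the secreted inhibitor DKK1 from 119.9 and 143 to 79.2 and 54.4 CPM (-0.99 ± 0.14, adjusted p = 2.1e-05). WNT7B, a ligand of squamous epithelia, fell from 247 and 258 to 202 and 187 CPM. Among 30 semaphorin, ephrin and guidance genes 8 rose and 10 fell. NTN1, netrin 1, fell from 88.9 and 98.1 to 45.9 and 47.6 CPM (-1.0 ± 0.10, adjusted p = 2.2e-07), and its receptor UNC5B rose from 77.5 and 83.3 to 106 and 108 CPM (0.41 ± 0.09, adjusted p = 0.0017). Ephrin EFNB2 fell (86.5 and 89.2 to 44.8 and 49.6 CPM) and EFNB1 rose (107 and 115 to 172 and 179.9 CPM). The falls numbered 6 without WT A or empty vector B and 4 without WT B, and DESeq2 called 5 rises and 4 falls.

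Of 32 mitotic genes, 13 rose and 1 fell, with a median of 0.20. TOP2A, the topoisomerase that untangles sister chromatids, went from 445 and 438 to 603 and 644 CPM (0.50 ± 0.06, adjusted p = 9.9e-07). NUSAP1, a spindle protein, went from 117 and 121 to 177 and 171 CPM (0.55 ± 0.07, adjusted p = 1.1e-05), and CENPF, a kinetochore protein, from 140.3 and 126 to 186 and 184 CPM. MYBL2, a transcription factor of late S and G2 phase, fell from 287 and 348 to 233 and 256 CPM, lost without empty vector B (0.058). CDK1, CCNB1 and CDC20 were not called (0.06, 0.12 and 0.00). Without WT B 8 mitotic genes rose, without empty vector B 10 rose and 0 fell, and with DESeq2 4 rose. Of 33 DNA replication genes 2 rose and 2 fell, a share below the background. LIG1, DNA ligase 1, rose from 49.7 and 60.9 to 88.9 and 81.4 CPM (0.61 ± 0.11, adjusted p = 0.0002) and was the only one of the 4 to keep its call without each library; MCM2 to MCM7 and PCNA were not called. The counts were 1 and 0 without WT A, WT B or empty vector B and with DESeq2, 1 and 4 without empty vector A, 2 and 1 with the 4 libraries alone and 4 and 1 with upper-quartile scaling, which turned the median from -0.03 to 0.0049; the median was also above 0 without WT B (0.02) or empty vector B (0.04). Among 20 G1 regulators, CDK6 fell from 106 and 112 to 61.0 and 62.1 CPM (-0.83 ± 0.09, adjusted p = 9.4e-07), CCND3 from 62.9 and 80.7 to 37.1 and 44.1 CPM, CDK4 from 253 and 274 to 183 and 216 CPM and E2F2 from 37.7 and 37.8 to 23.4 and 24.1 CPM. RBL2, the pocket protein p130, rose from 48.8 and 53.7 to 82.9 and 81.2 CPM (0.67 ± 0.11, adjusted p = 6.6e-05). CCND1 was at 835 and 932 against 858 and 875 CPM. In all 2 rose and 5 fell, or 1 and 4 without WT B, without empty vector A or with DESeq2, and the median of -0.03 became -0.12 without empty vector A and rose above 0 with upper-quartile scaling (0.01) or without empty vector B (0.02).

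Ribosome biogenesis fell without a called rise: 19 of 29 tested genes fell and 0 rose, with a median of -0.31 (10 fell with DESeq2). NOL6, a component of the small subunit processome, went from 125 and 137 to 76.7 and 83.4 CPM (-0.72 ± 0.09, adjusted p = 3e-06), and UTP20, of the same complex, from 97.1 and 96.8 to 60.1 and 58.4 CPM. DKC1, the pseudouridine synthase dyskerin, went from 342 and 322 to 223 and 235 CPM (-0.53 ± 0.07, adjusted p = 4.1e-06). The abundant nucleolar proteins NCL (1658 and 1749 to 1376 and 1397 CPM) and NPM1 (2466 and 2391 to 2009 and 2011 CPM) fell by smaller ratios, -0.30 ± 0.05 and -0.27 ± 0.05. The methyltransferase FBL was at 376 and 360.0 against 381 and 379.9 CPM. MYC, a known driver of these genes, was at 290.3 and 275 CPM with the empty vector and at 279 and 266 CPM with WT and was not called (-0.05, adjusted p = 0.62). The share of members called in the MYC and MAX network was below the background share of 22.9%. MXD4, an antagonist within this network, rose from 33.6 and 29.8 to 47.0 and 54.9 CPM (0.70 ± 0.12, adjusted p = 0.00026). MXI1 rose as well (17.5 and 17.2 to 24.8 and 28.1 CPM), lost without WT B (0.096) and with DESeq2 (0.15), and these were the 2 calls among 12 members.

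Cholesterol is made from acetyl-CoA through the mevalonate pathway, whose genes are induced together by the transcription factor SREBF2, while SREBF1 drives fatty acid synthesis. Of 33 tested members of these pathways, 26 rose and 1 fell, with a median of 0.46. MVD, mevalonate diphosphate decarboxylase, went from 45.3 and 39.4 to 95.8 and 85.7 CPM (1.11 ± 0.11, adjusted p = 9.2e-08). LSS, which closes the sterol rings, went from 172 and 166 to 353 and 307 CPM (0.96 ± 0.07, adjusted p = 2.7e-09). The rise spanned the pathway. At its entry HMGCS1 went from 946 and 899 to 1638 and 1377 CPM. Among the late steps MSMO1 (0.85 ± 0.10), EBP (0.63 ± 0.12) and DHCR7 (0.48 ± 0.08) rose. The regulators rose too: SREBF2 from 198 and 197 to 315 and 289 CPM (0.61 ± 0.07), INSIG1 from 181 and 171 to 324 and 301 CPM (0.83 ± 0.07) and SREBF1 from 292 and 326 to 375 and 396 CPM (0.32 ± 0.06). On the fatty acid side SCD, the stearoyl-CoA desaturase, went from 2320.5 and 2388 to 3660.4 and 3512 CPM (0.61 ± 0.05, adjusted p = 2e-09), and ACSS2, FADS1, FADS2, ACLY and FASN rose, while ACACA was not called (0.06). CYP51A1 rose but not without WT A (0.069), and NSDHL and SC5D were lost on leaving out 3 or more of the libraries in turn (0.051 to 0.32).

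Of 24 genes of the ATF4 and unfolded protein responses, 11 fell and 0 rose. ATF4 went from 429 and 429 to 313 and 316 CPM (-0.45 ± 0.06, adjusted p = 7e-06), and its targets SLC7A11 (560.5 and 486 to 387 and 397 CPM), ASNS (119 and 109 to 77.2 and 89.5 CPM) and TRIB3 (106 and 107 to 84.1 and 73.9 CPM) fell. The other 7 falls were each lost without at least 1 library, leaving 7 without WT A, 4 without WT B and 6 without empty vector B or with DESeq2; without empty vector A 10 fell and 1 rose. DDIT3 and XBP1 were not called. Of 21 heat shock genes, 12 fell and 1 rose. CRYAB, a small heat shock protein, went from 24.6 and 18.9 to 3.14 and 2.76 CPM (-2.86 ± 0.29, adjusted p = 2.4e-07). HSP90AA1 went from 1728 and 1851 to 1248 and 1407 CPM (-0.43 ± 0.06, adjusted p = 7.6e-06), HSPA8 from 1548 and 1548 to 1272 and 1315 CPM and the chaperonin subunit CCT5 from 1046 and 1002 to 752 and 789 CPM. HSF1 was at 116 and 116 against 105 and 111 CPM and was not called. BAG3 rose by 0.28, a call lost without WT A (0.14) or empty vector B (0.11) and with DESeq2 (0.14); without empty vector A 2 rose.

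NRF2 targets gave 12 rises and 7 falls of 29. NFE2L2, the gene of NRF2, rose from 317 and 301 to 450.1 and 447 CPM (0.54 ± 0.06, adjusted p = 7.2e-07), and its inhibitor KEAP1 was at 124 and 115 against 134 and 131 CPM. ALDH3A1, an aldehyde dehydrogenase, rose from 1260.4 and 1231 to 2177 and 2138 CPM (0.79 ± 0.05, adjusted p = 9.7e-11). The widely used targets NQO1 (602 and 601 to 456 and 466 CPM), TXNRD1 (1004 and 947 to 747 and 704 CPM) and AKR1B10 (570.4 and 531 to 265 and 292 CPM) fell instead, AKR1B10 by -0.98 ± 0.06 (adjusted p = 1.8e-10). The glutamate-cysteine ligase subunits GCLC and GCLM were not called. Glycolysis and hypoxia genes gave 10 rises and 7 falls of 27. NDRG1, a stress-induced gene, went from 55.5 and 48.1 to 210.4 and 164 CPM (1.86 ± 0.11, adjusted p = 6.2e-11). The glucose transporters went opposite ways, SLC2A1 from 411 and 401 to 691 and 708 CPM (0.79 ± 0.05, adjusted p = 7e-10) and SLC2A3 from 232 and 209 to 174 and 168 CPM (-0.36 ± 0.08, adjusted p = 0.0013). Known hypoxia targets split too: CA12, VEGFA and P4HA1 rose, and ADM (88.3 and 89.8 to 40.2 and 45.9 CPM), EGLN3 and PFKFB3 fell. Of 22 p53 targets, BTG2 rose (26.6 and 25.2 to 56.7 and 50.9 CPM) and GADD45A fell (67.8 and 56.1 to 35.1 and 31.3 CPM), while MDM2 and BAX were not called. That group had 4 rises and 5 falls, or 2 and 1 without WT A, 4 and 3 without WT B 2 and 3 without empty vector A and 1 and 1 with DESeq2, and its median of -0.02 was -0.15 without WT A, 0.02 with upper-quartile scaling, 0.03 without WT B and 0.12 without empty vector B. Among 19 solute carriers 2 rose and 7 fell (4 fell without WT B or with DESeq2); the glutamate transporter SLC1A3 fell from 116 and 117 to 68.7 and 71.7 CPM, and the neutral amino acid carrier SLC1A4 rose from 35.1 and 28.5 to 51.9 and 58.6 CPM.

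In absolute level the largest changes fell on abundant genes. KRT5, KRT13, SCD, KRT17, ALDH3A1, BCAM and HMGCS1 were among the 10 largest rises in CPM. The elongation factor EEF1A1 also rose, from 11138 and 10321 to 12602 and 12174 CPM (0.21 ± 0.04, adjusted p = 0.0013), and EEF1G from 2041 and 2029 to 2646 and 2542 CPM. The largest fall in CPM was that of ACTB, which went from 3085 and 3073 to 2167 and 2263 CPM (-0.47 ± 0.05, adjusted p = 1.1e-07); THBS1, described above, came next. The tubulins TUBB and TUBA1B fell too, TUBB from 2151 and 2245 to 1597 and 1655 CPM and TUBA1B from 1694 and 1864 to 1219 and 1293 CPM. FTH1, ferritin heavy chain, fell from 1937 and 1958 to 1430 and 1388 CPM, and the protocadherin FAT1 from 1463 and 1258 to 861 and 817 CPM. GAPDH, a usual reference gene, was at 7256 and 7074 against 6678 and 6463 CPM; its call (-0.12, adjusted p = 0.037) was lost with upper-quartile scaling (0.16), with DESeq2 (0.071) and without WT A, WT B or empty vector A (0.062 to 0.22), among other settings. Mitochondrially encoded genes, a measure of RNA composition, gave 2 rises and 1 fall of 13 (7 rises with upper-quartile scaling, 5 with limma-voom and 4 without empty vector A; 0 falls without WT A or with DESeq2). The total of 2 rises and 1 fall was near the background share of 22.9%. MT-ATP6 rose by 0.22 ± 0.05 (1707 and 1738 to 1977 and 2042 CPM). It overlaps MT-ATP8 on the mitochondrial genome, so their reads can be shared. Of 19 markers of other cell types, 2 were tested; CD68 fell from 65.5 and 65.5 to 47.6 and 48.1 CPM, which DESeq2 did not call (0.080), and VWF was not called.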

How the data were processed

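RNA was poly(A)-selected and sequenced from HCC95 cells, per the labels' protocols. Per the submitters' processing notes, STAR, RSEM and the hg19 build were used, and edgeR and limma are also named, without versions. The authors deposited, for each library, RSEM expected counts per gene, TPM, FPKM and transcript lengths; expected counts are fractional where RSEM divided a read among genes. Gene IDs and their symbols were used as deposited, and 52338 of 57820 IDs were found in GENCODE 29. The FPKM values the authors deposited were not used for any result.

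The expected counts were rounded and fitted with edgeR 4.0.16 (R 4.3.3): filterByExpr, TMM, a quasi-likelihood fit over the 6 HCC95 libraries and a two-sided test of WT minus empty vector, with Benjamini-Hochberg adjustment over 12933 genes and calls at an adjusted p under 0.05. The standard error is the log2 fold change divided by the square root of F. Totals of 3455357 to 4643748 counts limit precision at low levels; counting intervals (95%, exact) cover counting error only. Named genes are KLF5 and its family, the 15 largest rises and falls by fold (adjusted p under 0.05, no overlap, at least 5 CPM on the higher side), the 10 largest in CPM, and members of 38 gene lists. The members and lists were chosen with earlier results of these data known. Scripts were tested on simulated data with 200 changed genes. Of 161 calls there, 8.7% were unchanged genes, above the 5% aimed at. Changes of 1.5-fold were called in 58.7% of cases, of 2-fold in 68.2% and of 4-fold in 98.5%, each from 63 to 66 genes. The share of changed genes was far smaller there than the share called in the data. These rates therefore may not hold for the data. Promoters are from RefSeq (GRCh38.p14), a later build than the counts. DESeq2 1.42.0, limma-voom (limma 3.58.1) and 10 other alternatives were run. The 6 libraries of the other cell line were not used here. Some genes are not reported here.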

Additional observations from a re-analysis of the deposited data

How the results depend on the processing

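KLF5 rose in each of the 12 alternatives, with a log2 fold change of 1.44 to 1.59 on leaving out a library. The number of changed genes was 2766 with the 4 libraries alone, 2975 with RLE size factors, 2988 with upper-quartile scaling (1680 rises and 1308 falls), 3047 with no filter, 2933 at a mean of at least 5 CPM and 2979 with limma-voom. DESeq2 called 1150 (508 rises and 642 falls), all of them also called by edgeR, and 216 list members against 367. It gave no adjusted p for 3511 genes, which count as not called. The cause of the lower numbers was not tested. Leaving out a library in turn gave 1719 to 2422 calls, 785 to 1113 rises and 934 to 1309 falls, and 275 to 332 list members; each such fit has fewer libraries. Deviations of same-lettered replicates were little correlated over 6049 genes. The correlation was 0.01 between empty vector and WT, -0.04 between empty vector and E419Q and 0.09 between WT and E419Q. The letters were therefore not taken as pairs. With the replicate letter as a block 2900 genes were called (1362 rises and 1538 falls). Upper-quartile scaling moved the median of all genes to 0.04. At these depths 3 counts equal 0.646 to 0.868 CPM of the unscaled total. Where a group lies below that, the size of a change is uncertain.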
